A study of Homo sapiens with 24 samples.

Results

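The genes described here are 42 genes of the synaptic vesicle and its release machinery, of 57356 genes listed in all 3 gene count tables of the study. They are called members, and were taken as a list of names chosen with earlier results of these data known. Shares of members set beside those of all genes are therefore descriptions. Each member was matched by its Ensembl ID in every table. RNA was sequenced from SK-N-SH and SK-N-AS, established human neuroblastoma lines, after knockdown of FAM167A, also called DIORA1. The knockdown groups were 5 SK-N-SH libraries with a siRNA pool against the gene, 3 SK-N-SH libraries with the guide sgDIORA1 and 4 SK-N-AS libraries with that guide. Their controls were 5 SK-N-SH libraries with a non-targeting siRNA, 3 SK-N-SH libraries with sgGal4 and 4 SK-N-AS libraries with sgGal4. CRISPRi represses transcription by bringing a Cas9 protein fused to the KRAB repressor to a gene, and the design names SpCas9-KRAB for both lines, so CRISPRi controls differ from their knockdown cells by the guide. The sources used here do not say whether the CRISPRi cells were clones, or whether replicates were separate cultures. The p-values therefore judge differences against the spread between these libraries, which may be technical.

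A synaptic vesicle is filled with transmitter, held in a reserve by synapsins, and brought to the release site by RAB3 GTPases and their RIM partners. There the active zone proteins RIM, ELKS, liprin-α, Bassoon, Piccolo and UNC13 prepare it for fusion, and the SNARE proteins VAMP, SNAP25 and syntaxin pull the membranes together under the control of complexin and of the calcium sensor synaptotagmin. NSF and its SNAP adaptors then take the SNARE bundle apart, and dynamin, synaptojanin and clathrin adaptors retrieve the membrane. Neuroblastoma arises from the sympathetic lineage, whose neurons store catecholamines in vesicles that use the same fusion proteins.

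Total counts ranged between 71464698 and 90255175 in the siRNA libraries, 11690515 and 21628076 in SK-N-SH CRISPRi and 29985858 and 104455853 in SK-N-AS CRISPRi. Levels are given as CPM, which are counts per 1000000 after TMM normalisation. A call is an adjusted p under 0.05 from edgeR's quasi-likelihood test with Benjamini-Hochberg adjustment over all genes tested, two-sided. FAM167A averaged 3.22 ± 0.588 CPM in knockdown and 242 ± 12.7 CPM in control libraries (SD, n = 3 each) of SK-N-SH CRISPRi, 10.2 ± 0.739 CPM in knockdown and 95.1 ± 3.56 CPM in control libraries (SD, n = 4 each) of SK-N-AS CRISPRi, and 65.2 ± 5.13 CPM in knockdown and 188 ± 12.5 CPM in control libraries (SD, n = 5 each) of the siRNA experiment, which is 1.33%, 10.7% and 34.7% of control. The adrenergic neuroblastoma markers PHOX2A, HAND2, GATA3, ISL1 and DBH were read in both lines. TH, the remaining adrenergic marker used here, was near the floor, with 1 knockdown and 2 control reads in SK-N-SH CRISPRi. In controls TH averaged 0.106 CPM in the siRNA experiment and 0.718 CPM in SK-N-AS. Marker sums of glia, epithelium and endothelium stayed at or below 5.63 CPM in every library, and in SK-N-AS the blood marker CD3E was at 0 reads while PTPRC averaged 451 CPM in knockdown and 542 CPM in control libraries. Among the siRNA libraries, knockdown library 4 and control library 5 deviated together from their group means (r = 0.388 across genes), so member counts are also given without both.

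Many neuronal genes carry the RE1 element, which the repressor REST binds, and SYN1 is a textbook example. RefSeq promoter windows of GRCh38.p14, each with 250 bases before and 50 after a start, were held for 35 of the 42 members, in 51 windows. The element has a left and a right part. Its left part, searched as TTCAGCACC, together with the core of the right part, GGACAG, with 2 to 9 bases between them and on either strand, lay in the windows of SYN1 and UNC13A. The same pair lay in 14 of all 35116 windows (0.0399%). The core GGACAG alone, which overlaps the paired element by construction, lay in 11 member windows (21.57%) and in 20.5% of all windows, and the cyclic AMP element TGACGTCA lay in the windows of SYN1 and SH3GL2 and in 1.85% of all windows. Both promoters with the paired element are shown to 20 bases after the start, 5′ to 3′, because no other member window held it, and the capitals mark its parts.
SYN1, chrX:47619838-47620107, minus strand: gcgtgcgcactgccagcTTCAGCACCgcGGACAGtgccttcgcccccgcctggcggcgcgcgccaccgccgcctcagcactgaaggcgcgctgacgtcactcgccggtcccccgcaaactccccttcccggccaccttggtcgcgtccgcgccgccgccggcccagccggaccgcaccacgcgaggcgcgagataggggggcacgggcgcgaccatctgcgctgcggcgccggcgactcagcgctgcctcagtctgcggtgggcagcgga
UNC13A, chr19:17688335-17688604, minus strand: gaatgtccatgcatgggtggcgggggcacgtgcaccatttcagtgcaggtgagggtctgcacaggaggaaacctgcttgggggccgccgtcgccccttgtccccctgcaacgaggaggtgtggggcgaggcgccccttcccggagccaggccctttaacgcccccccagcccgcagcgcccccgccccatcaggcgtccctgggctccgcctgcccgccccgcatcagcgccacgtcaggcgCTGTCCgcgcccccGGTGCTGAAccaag
The element ran over bases −233 to −217 of SYN1 with 2 bases between them, and over bases −8 to 15 of UNC13A on the opposite strand with 8 bases between them, counted from the RefSeq start. A letter match is a description and does not show that a factor was bound in these cells.

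In SK-N-SH, CRISPRi knockdown was accompanied by lower RNA of most release genes. Of 37 members tested, 23 fell and 8 rose, and 16 fell at least 2-fold while none rose 2-fold. Changes of 2-fold were not counted over all genes in any experiment, so these counts have no background beside them. CPLX1, NPTX2, ERC2, NPTXR and SNAP91 fell furthest, to between 19.1% and 25.5% of control on the fitted scale, and RIMS2, RAB3B and SYT1 rose furthest. Among all genes tested in that experiment 55.8% were called, 27.7% higher and 28% lower. The share of members called lower was above the background, and the 8 of 37 called higher were not far below it. The median log2 fold change was −0.80 over the members tested and −0.01 over all 15391 genes. Knockdown and control libraries did not overlap for 31 of the 37 members, against 60.7% of all genes. The siRNA knockdown in the same line moved fewer members. Of 39 tested, 4 rose and 3 fell, none by 2-fold. That is 17.9% called, against 9.53% of all genes, 2.55% higher and 6.98% lower. The members' median log2 fold change was 0.00, with 0.01 over all 21018 genes, and 6 of 39 members did not overlap between groups, against 8.74% of all genes. In SK-N-AS CRISPRi, 15 of 37 members tested fell and 7 rose, of which 1 fell and 2 rose at least 2-fold. All genes gave 30.6% called, 15.2% higher and 15.5% lower, the members' median log2 fold change was −0.16 against 0.00 over 19277 genes, and 21 of 37 members did not overlap, against 29.1% of all genes.

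**Figure D1:**
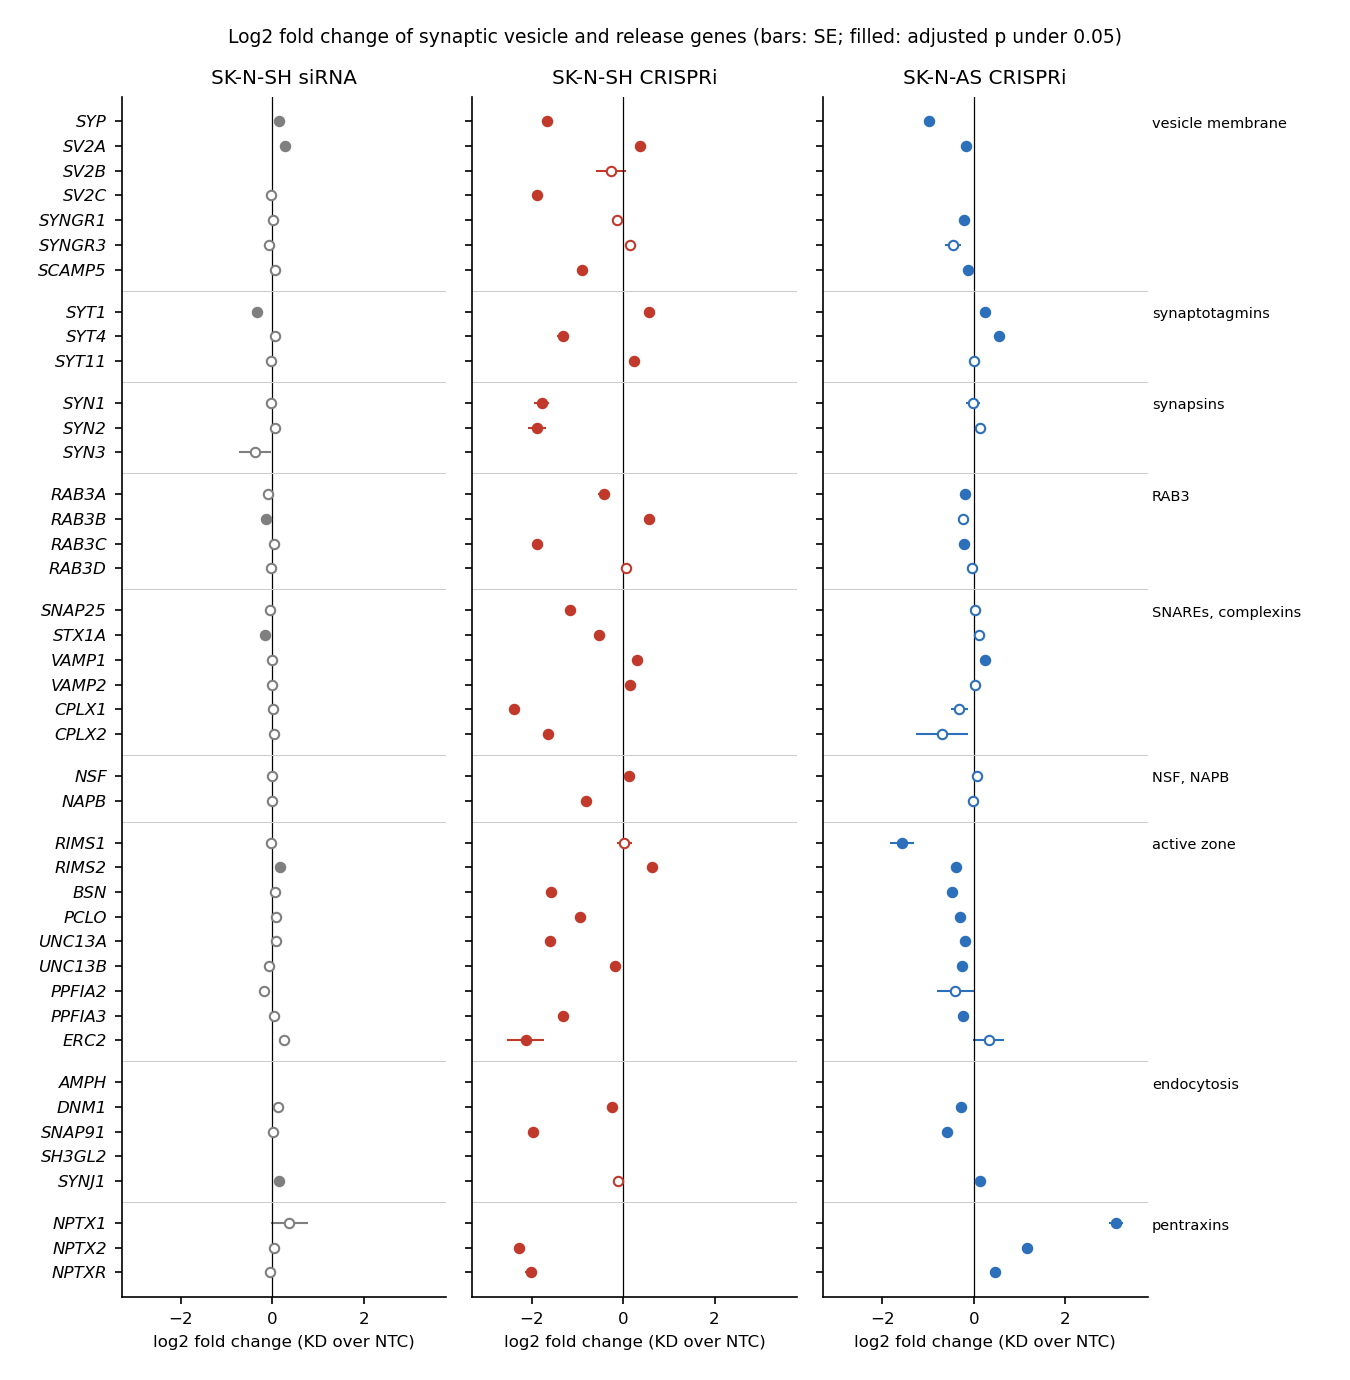
Log2 fold change, knockdown over control, of each member tested (edgeR estimate, bars ± SE), ordered by role, with a panel for each experiment and filled points at an adjusted p under 0.05. The siRNA values lie near 0, the SK-N-SH CRISPRi values reach −2.39 for CPLX1, and in SK-N-AS CRISPRi the pentraxins NPTX1 and NPTX2 stand out at 3.11 and 1.16.

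Markers of neuroblastoma cell states moved in the same libraries. The summed level of the 6 adrenergic markers named above was 652 to 694 CPM in SK-N-SH CRISPRi knockdown libraries and 1673 to 1746 CPM in their controls, and 5 of 5 tested fell. The mesenchymal marker sum was 10656 to 11256 CPM in those knockdown libraries and 5573 to 6418 CPM in their controls, with 5 of 7 markers higher and 1 lower. In SK-N-AS the adrenergic sum was 811 to 859 CPM in knockdown and 887 to 933 CPM in control libraries (3 of 6 fell), and the mesenchymal sum was 2760.4 to 2838 CPM in knockdown and 2479.7 to 2518 CPM in control libraries (6 of 7 rose, 1 fell). With siRNA the adrenergic sum was 1753 to 1906 CPM in knockdown and 1680.3 to 1834 CPM in control libraries (1 of 5 tested rose), and the mesenchymal sum was 1575 to 1853 CPM in knockdown and 2146 to 2327 CPM in control libraries (5 of 7 fell). The part of these markers in the members' changes was not tested. In bulk RNA, fewer cells of a type and less RNA per cell cannot be told apart.

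Among the vesicle membrane proteins, synaptophysin fell under CRISPRi in both lines. SYP, the abundant vesicle glycoprotein used as a marker of synaptic vesicles (ENSG00000102003, chrX:49187804-49200259, minus strand of GRCh38), had 11.6, 11.8 and 13.4 CPM in the knockdown libraries, against 36.8, 40.6 and 39.9 CPM in the controls of SK-N-SH CRISPRi. Every knockdown library lay below every control, at log2 fold change −1.67 ± 0.08 (SE, adjusted p = 3.27e-20). SYP in SK-N-AS CRISPRi had 8.06, 8.8, 9.75 and 8.46 CPM in the knockdown libraries, against 18.4, 16.6, 16.5 and 17.6 CPM in the controls, again without overlap. The SYP log2 fold change was −0.99 ± 0.07 (SE, adjusted p = 1.87e-14). With siRNA it had 56.6, 50.5, 55.4, 53.2 and 51.3 CPM in the knockdown libraries, against 46.5, 48.5, 49.9, 46.8 and 49.6 CPM in the controls, with the knockdown libraries slightly above the controls. The SYP log2 fold change was 0.15 ± 0.04 (SE, adjusted p = 0.0387). That siRNA call was lost without knockdown library 1, 3 or 4 or control library 1, 2 or 4, where the adjusted p reached up to 0.122, and with no filter on low counts (0.0581).

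SV2A, a transporter-like vesicle protein and the binding site of levetiracetam, rose in both SK-N-SH experiments. SV2A had 133, 126 and 138 CPM in the knockdown libraries, against 99.97, 104 and 103 CPM in the controls of SK-N-SH CRISPRi, and rose. The SV2A log2 fold change was 0.37 ± 0.04 (SE, adjusted p = 3.81e-09). It had 123, 125, 132, 122 and 121 CPM in the knockdown libraries, against 101, 107, 102, 102 and 107 CPM in the controls of the siRNA experiment, also higher without overlap. The SV2A log2 fold change was 0.27 ± 0.04 (SE, adjusted p = 2.95e-05). SV2A in SK-N-AS CRISPRi had 170.4, 175, 176 and 172 CPM in the knockdown libraries, against 198, 191, 195 and 193 CPM in the controls, and fell by a small amount without overlap. The SV2A log2 fold change was −0.16 ± 0.03 (SE, adjusted p = 6.82e-06). Its paralog SV2C had 19, 20.2 and 23.1 CPM in the knockdown libraries, against 74, 84.8 and 72.9 CPM in the controls of SK-N-SH CRISPRi, a fall without overlap. The SV2C log2 fold change was −1.89 ± 0.07 (SE, adjusted p = 2.40e-20). No read of SV2C was counted in any SK-N-AS library, and with siRNA its log2 fold change was −0.04 ± 0.05 (adjusted p = 0.707). SV2B, the remaining member of that family, was read at no more than 1.24 CPM in any library and was tested only in SK-N-SH CRISPRi (log2 fold change −0.26 ± 0.32 (SE), adjusted p = 0.514).

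SCAMP5, a secretory carrier membrane protein, averaged 49.4 ± 2.03 CPM in knockdown and 91.9 ± 2.66 CPM in control libraries (SD, n = 3 each) of SK-N-SH CRISPRi (log2 fold change −0.89 ± 0.05 (SE), adjusted p = 6.75e-18). SCAMP5 in SK-N-AS averaged 65 ± 2.04 CPM in knockdown and 71 ± 2.54 CPM in control libraries (SD, n = 4 each), a smaller fall (log2 fold change −0.13 ± 0.04 (SE), adjusted p = 0.00466). Its exons share 5.05% of their bases with RPP25 on the opposite strand. SYNGR1, a synaptogyrin of the vesicle membrane, fell in SK-N-AS (log2 fold change −0.22 ± 0.06 (SE), adjusted p = 0.0067) and was not called in SK-N-SH by CRISPRi (−0.13 ± 0.09, adjusted p = 0.258). SYNGR3 was not called in any experiment. In SK-N-AS its knockdown libraries lay below the controls at adjusted p = 0.0506, and it was called without knockdown library 1 (0.0419) or control library 3 (0.0424) and with the filter at a mean of 1 CPM (0.0388).

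The synaptotagmins, a family of vesicle proteins, did not move as one. SYT1, the fast calcium sensor of release (ENSG00000067715, chr12:78863993-79452008, plus strand), had 121, 119 and 120.0 CPM in the knockdown libraries, against 79.1, 86.8 and 77.6 CPM in the controls of SK-N-SH CRISPRi, a rise without overlap. The SYT1 log2 fold change was 0.57 ± 0.05 (SE, adjusted p = 3.20e-13). SYT1 with siRNA had 99.8, 103, 101, 93.3 and 96.4 CPM in the knockdown libraries, against 127, 125, 127, 123 and 119 CPM in the controls, a fall without overlap. The SYT1 log2 fold change was −0.33 ± 0.04 (SE, adjusted p = 1.47e-06). SYT1 in SK-N-AS CRISPRi had 197, 202, 214 and 210.4 CPM in the knockdown libraries, against 166, 184, 178 and 168 CPM in the controls, a rise. The SYT1 log2 fold change was 0.24 ± 0.03 (SE, adjusted p = 1.68e-07). The gene passed the test in all 3 experiments, higher under CRISPRi in both lines and lower with siRNA. Only SYT1 and SV2A kept their siRNA call under every alternative tried.

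SYT4, a synaptotagmin of dense-core vesicles that lacks strong calcium binding in its first C2 domain, had opposite calls between the lines. SYT4 had 9.16, 6.75 and 5.88 CPM in the knockdown libraries, against 16.9, 19.5 and 18 CPM in the controls of SK-N-SH CRISPRi, where the knockdown libraries were all lower. The SYT4 log2 fold change was −1.32 ± 0.12 (SE, adjusted p = 1.21e-11). SYT4 in SK-N-AS had 196, 185, 196 and 204 CPM in the knockdown libraries, against 123, 137, 136 and 134 CPM in the controls, where they were all higher. The SYT4 log2 fold change was 0.56 ± 0.03 (SE, adjusted p = 8.79e-16). With siRNA the value was 0.05 ± 0.04 (adjusted p = 0.509), although control levels in that experiment were 143 ± 5.53 CPM against 18.1 ± 1.3 CPM in the CRISPRi controls of the same line (SD, n = 5 and 3). SYT11, a synaptotagmin that does not bind calcium, averaged 238 ± 3.38 CPM in knockdown and 203 ± 1.42 CPM in control libraries (SD, n = 3 each) of SK-N-SH CRISPRi, a rise (log2 fold change 0.23 ± 0.04 (SE), adjusted p = 3.79e-06). It was not called in SK-N-AS (−0.00 ± 0.03, adjusted p = 0.934) or with siRNA (−0.04 ± 0.04, adjusted p = 0.662).

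**Figure D2:**
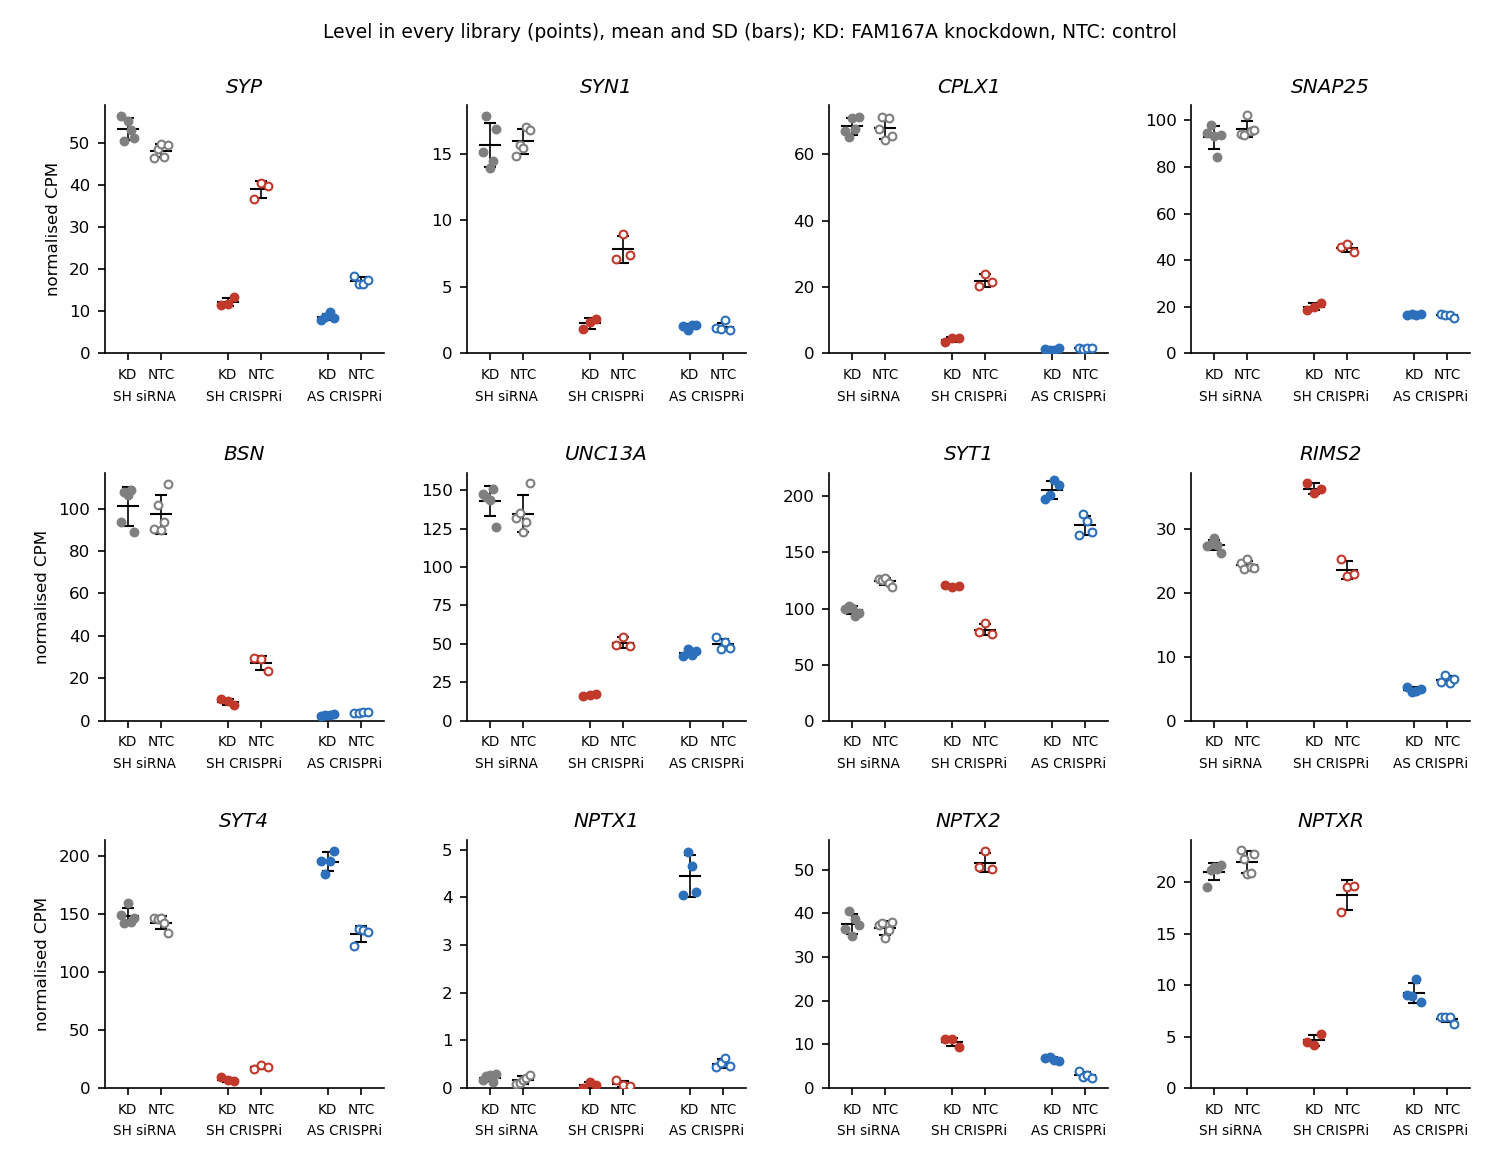
Level in every library (CPM, linear axis starting at 0) of 12 members that the results turn on, with knockdown libraries (KD, filled) left of their controls (NTC, open) in each experiment and bars at the mean ± SD. SYP and CPLX1 lie lower in the SK-N-SH CRISPRi knockdown libraries than in their controls, and SYT1 lies higher. For NPTX2 and NPTXR the CRISPRi groups lie in opposite order in the lines.

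The synapsins, phosphoproteins that tether vesicles in the reserve pool, fell in SK-N-SH CRISPRi in both tested members. SYN1 had 1.83, 2.36 and 2.62 CPM in the knockdown libraries, against 7.11, 8.97 and 7.41 CPM in the controls, at log2 fold change −1.78 ± 0.17 (SE), adjusted p = 1.12e-11, from 104 knockdown and 390 control reads. SYN2 had 1.37, 2.16 and 1.15 CPM in the knockdown libraries, against 6.78, 5.21 and 5.47 CPM in the controls of the same experiment (log2 fold change −1.88 ± 0.20 (SE), adjusted p = 4.10e-10), from 71 knockdown and 285 control reads. Neither overlapped between groups. In SK-N-AS neither was called, at −0.02 ± 0.15 for SYN1 (adjusted p = 0.955) and 0.13 ± 0.10 for SYN2 (adjusted p = 0.382), and nor was either with siRNA (−0.03 and 0.06). SYN1, whose promoter is shown above, fell in 1 experiment of 3, and UNC13A, the other gene with the paired element, fell in both CRISPRi experiments. SYN3 was at no more than 0.49 CPM in any library and was tested only with siRNA (−0.38 ± 0.35, adjusted p = 0.589).

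The RAB3 GTPases, which mark vesicles for docking through RIM, split by paralog. RAB3C had 8.18, 7.29 and 8.49 CPM in the knockdown libraries, against 27.3, 31.7 and 29 CPM in the controls of SK-N-SH CRISPRi, the largest fall of the family. The RAB3C log2 fold change was −1.88 ± 0.09 (SE, adjusted p = 1.24e-19). RAB3C in SK-N-AS had 19.8, 19.1, 19.1 and 20.9 CPM in the knockdown libraries, against 21.4, 23.9, 23.2 and 23.4 CPM in the controls, a smaller fall without overlap. The RAB3C log2 fold change was −0.21 ± 0.05 (SE, adjusted p = 0.00144). RAB3B had 273, 294 and 271 CPM in the knockdown libraries, against 194, 184 and 186 CPM in the controls of SK-N-SH CRISPRi, a rise without overlap. The RAB3B log2 fold change was 0.57 ± 0.04 (SE, adjusted p = 8.04e-15). With siRNA RAB3B averaged 81.7 ± 4.78 CPM in knockdown and 90.3 ± 4.46 CPM in control libraries (SD, n = 5 each), with overlapping groups and an adjusted p of 0.04996, just under the threshold (−0.14 ± 0.05). That call was lost without knockdown library 1, 2, 3 or 5 or control library 1, 3 or 4, with an adjusted p of up to 0.166, with RLE size factors (0.0583) and with the filter at a mean of 1 CPM (0.0557). RAB3A, the main neuronal form, fell in SK-N-SH CRISPRi (log2 fold change −0.42 ± 0.12 (SE), adjusted p = 0.00414) and in SK-N-AS (log2 fold change −0.20 ± 0.07 (SE), adjusted p = 0.035). The SK-N-AS call was lost without knockdown library 2, 3 or 4 or control library 1, 3 or 4, with an adjusted p of up to 0.135, and 9.08% of RAB3A exon bases lie opposite MPV17L2. RAB3D, best known from exocrine and endocrine granules, was not called anywhere, at 0.06, −0.04 and −0.02 in SK-N-SH CRISPRi, SK-N-AS CRISPRi and siRNA.

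The SNARE proteins and complexins held the largest fall among the members that were tested. CPLX1, a complexin that clamps and promotes SNARE-driven fusion (ENSG00000168993, chr4:784957-826198, minus strand), had 3.34, 4.59 and 4.66 CPM in the knockdown libraries, against 20.3, 24 and 21.4 CPM in the controls of SK-N-SH CRISPRi. No knockdown library came near the controls, at log2 fold change −2.39 ± 0.12 (SE), adjusted p = 1.11e-19. CPLX1 with siRNA had 67.1, 65.2, 71, 67.7 and 71.3 CPM in the knockdown libraries, against 67.6, 71.2, 64.2, 70.9 and 65.5 CPM in the controls, with overlapping groups (0.01 ± 0.04, adjusted p = 0.907), and in SK-N-AS it was at 1.28 ± 0.344 CPM in knockdown and 1.57 ± 0.162 CPM in control libraries (SD, n = 4 each) and not called (−0.31 ± 0.18, adjusted p = 0.214). CPLX2, its paralog, had 15.9, 18.2 and 15.2 CPM in the knockdown libraries, against 45.6, 56.1 and 52 CPM in the controls of SK-N-SH CRISPRi, a fall without overlap. The CPLX2 log2 fold change was −1.65 ± 0.08 (SE, adjusted p = 9.76e-19). In SK-N-AS CPLX2 was near the floor, at 0.12 ± 0.0714 CPM in knockdown and 0.201 ± 0.123 CPM in control libraries (SD, n = 4 each), and was not called (−0.69 ± 0.57, adjusted p = 0.402).

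SNAP25, the plasma membrane SNARE cleaved by botulinum toxin A, had 18.7, 19.8 and 21.8 CPM in the knockdown libraries, against 45.8, 46.8 and 43.4 CPM in the controls of SK-N-SH CRISPRi, a fall without overlap. The SNAP25 log2 fold change was −1.17 ± 0.07 (SE, adjusted p = 3.94e-17). It was not called in SK-N-AS (0.02 ± 0.06, adjusted p = 0.787) or with siRNA (−0.05 ± 0.04, adjusted p = 0.515). STX1A, the syntaxin of release sites, fell in SK-N-SH under CRISPRi (log2 fold change −0.53 ± 0.07 (SE), adjusted p = 5.64e-08) and by less with siRNA (log2 fold change −0.16 ± 0.05 (SE), adjusted p = 0.024). With 1 library left out, the siRNA call was lost without knockdown library 1, 3 or 4 or control library 1, 2 or 4 (adjusted p up to 0.0798). BUD23 lies opposite 17.93% of STX1A exon bases and had 8679 reads in SK-N-SH CRISPRi, against 3299 for STX1A, so a share of STX1A reads could not be assigned with certainty where strand was not used in counting.

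The vesicle SNAREs rose in SK-N-SH CRISPRi, by small amounts. VAMP1 averaged 18.4 ± 0.88 CPM in knockdown and 14.8 ± 0.934 CPM in control libraries (SD, n = 3 each) of SK-N-SH CRISPRi (log2 fold change 0.31 ± 0.09 (SE), adjusted p = 0.00276) and 10.6 ± 0.665 CPM in knockdown and 8.85 ± 0.817 CPM in control libraries (SD, n = 4 each) of SK-N-AS (log2 fold change 0.26 ± 0.07 (SE), adjusted p = 0.00674), with no overlap in either. TAPBPL lies opposite 9.47% of VAMP1 exon bases. VAMP2, the main brain synaptobrevin, rose in SK-N-SH CRISPRi (log2 fold change 0.16 ± 0.05 (SE), adjusted p = 0.0131), a call lost without knockdown library 3 (adjusted p = 0.0607), control library 1 (0.0583) or control library 3 (0.0511). NSF, the ATPase that takes SNARE complexes apart, rose in SK-N-SH CRISPRi (log2 fold change 0.13 ± 0.05 (SE), adjusted p = 0.0238), a call lost without knockdown library 2 (adjusted p = 0.12) and with DESeq2 (0.0642). NAPB, the neuronal SNAP adaptor of NSF, averaged 14.2 ± 0.84 CPM in knockdown and 24.8 ± 2.1 CPM in control libraries (SD, n = 3 each) of SK-N-SH CRISPRi, a fall (log2 fold change −0.80 ± 0.09 (SE), adjusted p = 2.83e-10). NAPB in SK-N-AS and with siRNA was at −0.01 and −0.01, neither called. The near-identical copy NSFP1 drew 0 reads in SK-N-SH CRISPRi, 23 in SK-N-AS and 1188 in the siRNA experiment.

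Most active zone genes among the members fell in both CRISPRi experiments. In SK-N-SH 6 of 8 tested were lower and 1 higher, and in SK-N-AS 7 of 9 were lower and none higher. Over all genes tested the shares lower were 28% in SK-N-SH and 15.5% in SK-N-AS, with 27.7% and 15.2% higher. UNC13A, the priming factor Munc13-1, had 16.4, 16.7 and 17.4 CPM in the knockdown libraries, against 49, 54.8 and 48.5 CPM in the controls of SK-N-SH CRISPRi. The UNC13A log2 fold change was −1.59 ± 0.07 (SE, adjusted p = 4.72e-21). UNC13A in SK-N-AS had 42.2, 46.6, 42.7 and 45.2 CPM in the knockdown libraries, against 54.2, 46.7, 51.4 and 47.3 CPM in the controls, a small fall. The UNC13A log2 fold change was −0.18 ± 0.04 (SE, adjusted p = 0.00185). Neither pair of groups overlapped. UNC13B, its paralog, fell in SK-N-SH (log2 fold change −0.18 ± 0.06 (SE), adjusted p = 0.00791) and SK-N-AS (log2 fold change −0.25 ± 0.05 (SE), adjusted p = 3.70e-05), and the SK-N-SH call was lost without knockdown library 3 (0.0546).

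BSN, the scaffold Bassoon, had 10.2, 9.38 and 7.47 CPM in the knockdown libraries, against 29.4, 29.3 and 23.6 CPM in the controls of SK-N-SH CRISPRi, a fall without overlap. The BSN log2 fold change was −1.59 ± 0.11 (SE, adjusted p = 1.75e-13). BSN in SK-N-AS averaged 2.72 ± 0.365 CPM in knockdown and 3.73 ± 0.315 CPM in control libraries (SD, n = 4 each) (log2 fold change −0.47 ± 0.12 (SE), adjusted p = 0.00216). PCLO, the related scaffold Piccolo, averaged 9.95 ± 0.278 CPM in knockdown and 19.4 ± 2.47 CPM in control libraries (SD, n = 3 each) of SK-N-SH CRISPRi (log2 fold change −0.95 ± 0.10 (SE), adjusted p = 3.15e-10) and 20.9 ± 1.8 CPM in knockdown and 25.7 ± 2.01 CPM in control libraries (SD, n = 4 each) of SK-N-AS (log2 fold change −0.30 ± 0.06 (SE), adjusted p = 1.00e-04). PPFIA3, a liprin-α, averaged 9.43 ± 0.929 CPM in knockdown and 23.5 ± 0.481 CPM in control libraries (SD, n = 3 each) of SK-N-SH CRISPRi (log2 fold change −1.32 ± 0.09 (SE), adjusted p = 3.92e-15), and in SK-N-AS its fall was −0.24 ± 0.06 (SE, adjusted p = 0.00145). ERC2, an ELKS protein that binds RIM, fell in SK-N-SH CRISPRi from few reads, 13 knockdown and 63 control reads (log2 fold change −2.13 ± 0.40 (SE), adjusted p = 2.40e-05). PPFIA2, another liprin-α, had 4 knockdown and 28 control reads in SK-N-SH CRISPRi and did not pass the filter. It was not called in SK-N-AS or with siRNA (−0.40 and −0.18), and in SK-N-AS its 132 reads stand beside 4405 of ACSS3, which lies opposite 19.67% of its exon bases.

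RIMS1 and RIMS2, whose proteins tether vesicles and calcium channels at the active zone, did not fall in SK-N-SH CRISPRi. RIMS2 had 37.3, 35.7 and 36.3 CPM in the knockdown libraries, against 25.3, 22.7 and 23 CPM in the controls of SK-N-SH CRISPRi, a rise without overlap and the largest among the members there. The RIMS2 log2 fold change was 0.63 ± 0.07 (SE, adjusted p = 5.03e-10). RIMS2 in SK-N-AS had 5.37, 4.51, 4.65 and 5.0 CPM in the knockdown libraries, against 6.1, 7.2, 5.9 and 6.57 CPM in the controls, a fall without overlap. The RIMS2 log2 fold change was −0.39 ± 0.09 (SE, adjusted p = 0.00102). With siRNA it rose by less (log2 fold change 0.18 ± 0.05 (SE), adjusted p = 0.0183), a call lost without knockdown library 3 or control library 2 or 4 (adjusted p up to 0.0667). RIMS1 was not called in SK-N-SH CRISPRi at 0.03 ± 0.17 (adjusted p = 0.895) and had 0.271, 0.365, 0.273 and 0.52 CPM in the knockdown libraries, against 1.0, 0.966, 0.876 and 1.37 CPM in the controls of SK-N-AS, a fall from low levels (log2 fold change −1.57 ± 0.27 (SE), adjusted p = 1.61e-05), with 105 knockdown and 259 control reads.

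Of the genes that retrieve vesicle membrane, SNAP91 changed most. SNAP91, the clathrin assembly protein AP180, had 8.7, 9.58 and 9.07 CPM in the knockdown libraries, against 36.8, 36.6 and 34.3 CPM in the controls of SK-N-SH CRISPRi, without overlap. The SNAP91 log2 fold change was −1.97 ± 0.08 (SE, adjusted p = 1.14e-21). SNAP91 in SK-N-AS had 2.24, 2.08, 1.86 and 1.99 CPM in the knockdown libraries, against 3.04, 3.2, 3.14 and 2.91 CPM in the controls, also lower without overlap. The SNAP91 log2 fold change was −0.58 ± 0.12 (SE, adjusted p = 3.95e-04). DNM1, the neuronal dynamin that pinches vesicles off, fell in SK-N-SH (log2 fold change −0.24 ± 0.05 (SE), adjusted p = 5.04e-05) and SK-N-AS (log2 fold change −0.28 ± 0.03 (SE), adjusted p = 8.32e-09). With siRNA DNM1 had 184, 192, 182, 206 and 186 CPM in the knockdown libraries, against 176, 170.1, 157, 162 and 209 CPM in the controls, and was not called (0.12 ± 0.06, adjusted p = 0.296), but was called higher without control library 5 (0.00587) and without that library and knockdown library 4 (0.012). SYNJ1, the phosphatase that uncoats vesicles, rose slightly with siRNA (log2 fold change 0.15 ± 0.05 (SE), adjusted p = 0.043) and in SK-N-AS (log2 fold change 0.15 ± 0.05 (SE), adjusted p = 0.0321). Its siRNA call was lost without any 1 of knockdown libraries 1, 2, 3 and 4 or control libraries 1, 2, 3 and 4 (adjusted p up to 0.152), without knockdown library 4 and control library 5 together (0.0769) and with no filter on low counts (0.0779), and its SK-N-AS call without knockdown library 3 or control library 1, 3 or 4 (up to 0.121). AMPH and SH3GL2, amphiphysin and endophilin A1, reached at most 0.11 and 0.132 CPM and were tested in no experiment.

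The neuronal pentraxins, secreted or membrane-bound proteins that cluster AMPA receptors at synapses, gave opposite calls in the lines. NPTX2 (ENSG00000106236, chr7:98617297-98629868, plus strand) had 11.2, 11.1 and 9.52 CPM in the knockdown libraries, against 50.6, 54.2 and 50.1 CPM in the controls of SK-N-SH CRISPRi, a fall. The NPTX2 log2 fold change was −2.28 ± 0.08 (SE, adjusted p = 9.13e-25). NPTX2 in SK-N-AS had 6.95, 7.16, 6.49 and 6.3 CPM in the knockdown libraries, against 3.88, 2.53, 3.04 and 2.37 CPM in the controls, a rise. The NPTX2 log2 fold change was 1.16 ± 0.11 (SE, adjusted p = 1.84e-10). NPTXR, the membrane-bound pentraxin, had 4.51, 4.18 and 5.24 CPM in the knockdown libraries, against 17.1, 19.5 and 19.7 CPM in the controls of SK-N-SH CRISPRi. The NPTXR log2 fold change was −2.02 ± 0.11 (SE, adjusted p = 7.02e-18). All of these groups were free of overlap. NPTXR in SK-N-AS had 9.03, 8.97, 10.6 and 8.36 CPM in the knockdown libraries, against 6.9, 6.93, 6.86 and 6.24 CPM in the controls, higher in all knockdown libraries. The NPTXR log2 fold change was 0.46 ± 0.08 (SE, adjusted p = 2.13e-05). NPTX1 (ENSG00000171246, chr17:80467148-80477843, minus strand) had 4.04, 4.96, 4.67 and 4.11 CPM in the knockdown libraries, against 0.434, 0.533, 0.633 and 0.455 CPM in the controls of SK-N-AS, the largest rise of any member. The NPTX1 log2 fold change was 3.11 ± 0.16 (SE, adjusted p = 7.95e-18). In SK-N-SH CRISPRi NPTX1 had 3 knockdown and 4 control reads in all and was not tested. With siRNA no pentraxin was called, at 0.37, 0.03 and −0.06 for NPTX1, NPTX2 and NPTXR.

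**Figure D3:**
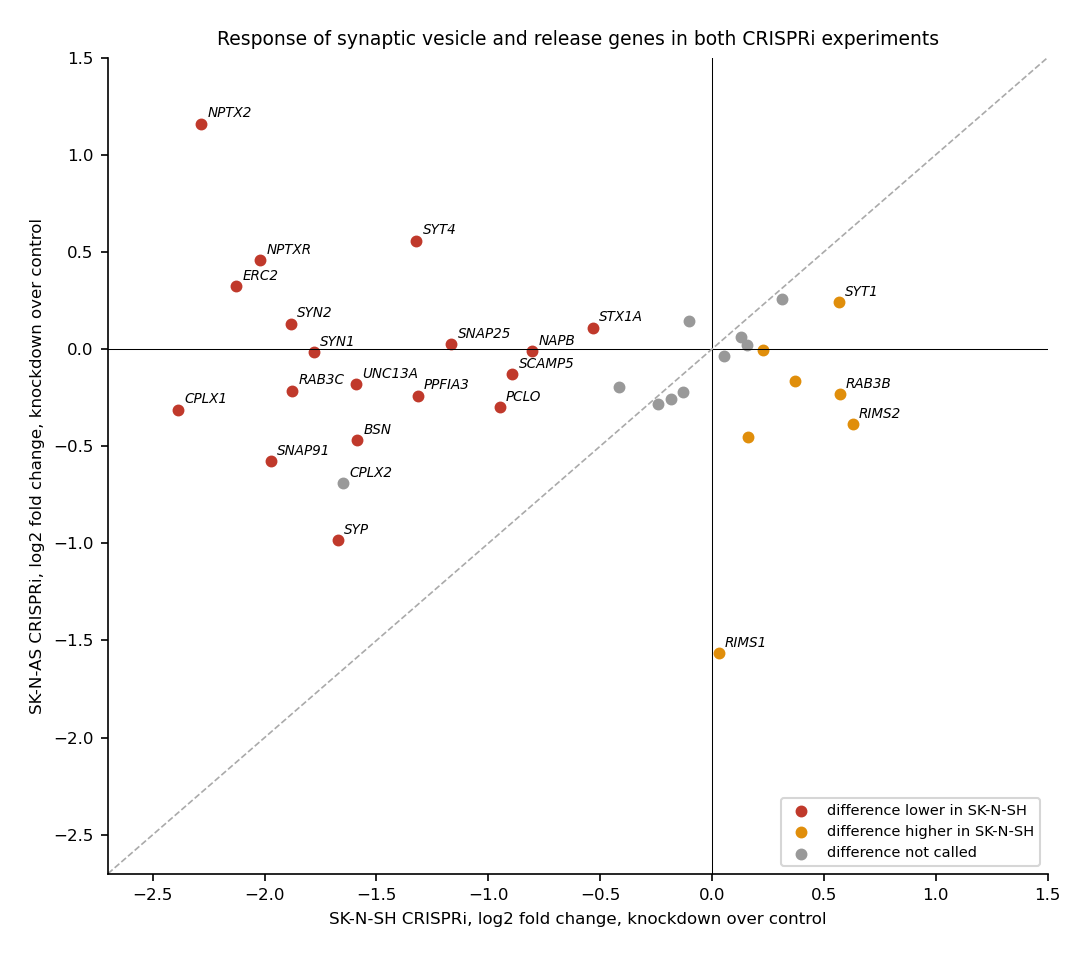
Log2 fold change under CRISPRi in SK-N-SH (x axis) and SK-N-AS (y axis) for the 35 members tested in both, coloured by the call on the difference between the responses, with a dashed line of equal response. Most points lie left of 0, NPTX2, NPTXR and SYT4 lie to the left and above 0, and RIMS2 and SV2A lie to the right and below 0.

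Calls of both CRISPRi experiments could be set side by side for 35 members, each line with controls of its own. Lower in both were 11 members, BSN, DNM1, PCLO, PPFIA3, RAB3A, RAB3C, SCAMP5, SNAP91, SYP, UNC13A and UNC13B. They are 31.4% of the 35, against 10.3% of all 14236 genes tested in both. They make up 73.3% of the 15 SK-N-AS falls, beside 62.9% of the 35 members lower in SK-N-SH whatever their SK-N-AS call, and 50% of the 22 SK-N-SH falls. Over all genes tested in both, the genes lower in both were 53.6% of the SK-N-AS falls and 37.4% of the SK-N-SH falls, and 27.5% of genes were lower in SK-N-SH. Whether the members' falls were shared more often than their number in each line gives was not tested. SYT1 and VAMP1 were higher in both, which is 5.71% of the 35, against 9.75% of all genes tested in both. NPTX2, NPTXR and SYT4 fell in SK-N-SH and rose in SK-N-AS, and RIMS2 and SV2A did the reverse. A further 8 fell in SK-N-SH without a call in SK-N-AS, CPLX1, CPLX2, ERC2, NAPB, SNAP25, STX1A, SYN1 and SYN2. Opposite calls and falls in SK-N-SH alone were not counted over all genes.

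The difference between the responses was tested directly, SK-N-SH minus SK-N-AS, in a joint model. Of 40 members tested, 19 had a lower and 7 a higher response in SK-N-SH, against 14.7% lower, 16% higher and 30.7% in either direction among all genes tested. The lower responses were NPTX2 (−3.42), NPTX1 (−3.37), ERC2 (−2.47), NPTXR (−2.46), CPLX1 (−2.04), SYN2 (−2.00), SYT4 (−1.87), SYN1 (−1.75), RAB3C (−1.65), UNC13A (−1.40), SNAP91 (−1.39), SNAP25 (−1.18), BSN (−1.11), PPFIA3 (−1.06), NAPB (−0.78), SCAMP5 (−0.75), SYP (−0.67), PCLO (−0.63) and STX1A (−0.63). The higher ones were RIMS1 (1.62), RIMS2 (1.02), RAB3B (0.82), SYNGR3 (0.61), SV2A (0.55), SYT1 (0.34) and SYT11 (0.25). NPTX2 had the largest of those called, −3.42 ± 0.14 (SE, adjusted p = 1.03e-23), and for NPTXR it was −2.46 ± 0.15 (SE, adjusted p = 8.78e-19). The NPTX1 difference of −3.37 ± 1.18 (SE, adjusted p = 0.0247) rests on very few SK-N-SH reads and was lost without SK-N-SH knockdown library 1 (0.0697) or control library 1 (0.191). SYP fell in both lines but by more in SK-N-SH, with a difference of −0.67 ± 0.11 (SE, adjusted p = 2.66e-06), and so did RAB3C (−1.65 ± 0.11 (SE, adjusted p = 1.78e-17)), SNAP91 (−1.39 ± 0.14 (SE, adjusted p = 2.29e-11)) and UNC13A (−1.40 ± 0.09 (SE, adjusted p = 8.25e-18)). For DNM1 the difference was 0.05 ± 0.06 (SE, adjusted p = 0.561) and for UNC13B 0.09 ± 0.08 (SE, adjusted p = 0.471), neither called, and a difference that was not called does not show that the responses were equal. The ERC2 difference, −2.47 ± 0.58 (SE, adjusted p = 6.67e-04), rested on 76 SK-N-SH and 190 SK-N-AS CRISPRi reads in all. SV2C has no SK-N-AS reads, so no difference of response is given for it.

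Within SK-N-SH, the CRISPRi response was also tested against the siRNA response, each experiment with its own controls. The CRISPRi response was lower for 23 and higher for 5 of 40 members tested, against 16.4% lower, 15.1% higher and 31.4% in either direction among all genes. Of the lower ones 18 differed at least 2-fold, a count not made over all genes. The largest were PPFIA2 (−2.49), CPLX1 (−2.41), ERC2 (−2.41), NPTX2 (−2.33) and SNAP91 (−2.00). Of these, PPFIA2 rested on 32 and ERC2 on 76 SK-N-SH CRISPRi reads in all. The higher ones were SYT1 (0.89), RAB3B (0.71), RIMS2 (0.44), VAMP1 (0.31) and SYT11 (0.25). SYT1 had the largest of these, 0.89 ± 0.07 (SE, adjusted p = 3.15e-13), as it rose with CRISPRi and fell with siRNA. The VAMP1 difference, 0.31 ± 0.12 (SE, adjusted p = 0.039), was lost without CRISPRi knockdown library 2 or 3, CRISPRi control library 1 or 2, siRNA knockdown library 5 or siRNA control library 2 or 5 (up to 0.139), and with no filter on low counts (0.0848). The SYNJ1 difference, −0.27 ± 0.09 (SE, adjusted p = 0.0229), was lost without CRISPRi knockdown library 2 or 3, CRISPRi control library 2, siRNA knockdown library 4 or siRNA control library 1 (up to 0.155). FAM167A was left at 1.33% of control by CRISPRi and at 34.7% by siRNA in this line, and method, depth of knockdown and batch of libraries cannot be told apart.

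CRISPRi control cells of the lines differed in how much of the machinery they expressed. In the CRISPRi controls, 28 of 40 members tested were higher and 8 lower in SK-N-SH than in SK-N-AS. Among all genes tested 39.4% were higher, 38% lower and 77.4% called in either direction. Of the members, 19 were higher and 3 lower by at least 2-fold, a count not made over all genes. Line and experiment cannot be told apart here, and the errors of levels are SDs over 3 SK-N-SH and 4 SK-N-AS libraries. SV2C averaged 77.2 ± 6.57 CPM in SK-N-SH controls and had 0 reads in SK-N-AS controls, at least 6363-fold higher if 3 reads are allowed over the 247148193 reads of the 4 SK-N-AS controls. CPLX2 averaged 51.2 ± 5.26 CPM in SK-N-SH and 0.201 ± 0.123 CPM in SK-N-AS controls, a log2 difference of 8.22 ± 0.17 (SE, adjusted p = 6.36e-30). RAB3B averaged 188 ± 5.38 CPM in SK-N-SH and 4.43 ± 0.662 CPM in SK-N-AS controls, a difference of 5.40 ± 0.07 (SE, adjusted p = 1.15e-33). NPTX2 averaged 51.7 ± 2.25 CPM in SK-N-SH and 2.96 ± 0.677 CPM in SK-N-AS controls, a difference of 4.09 ± 0.10 (SE, adjusted p = 6.66e-35). Lower in SK-N-SH were SYT4 at 18.1 ± 1.3 CPM, against 133 ± 6.69 CPM in SK-N-AS (−2.86 ± 0.06 (SE, adjusted p = 8.59e-33)), and NPTX1 at 0.0918 ± 0.0646 CPM, against 0.514 ± 0.0902 CPM in SK-N-AS (−2.63 ± 0.56 (SE, adjusted p = 4.04e-05)). SYT1 was lower in SK-N-SH too (−1.10 ± 0.04 (SE, adjusted p = 2.30e-27)). The low SYT4 level was not shared by all SK-N-SH controls, as SYT4 averaged 143 ± 5.53 CPM in the siRNA controls (SD, n = 5).

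Levels per length are given as RPKM, with the gene length deposited in the siRNA table used for every experiment. SYT11 led the SK-N-SH CRISPRi controls with 38.8 ± 0.271 RPKM (SD, n = 3). It was followed by SV2A with 21.2 ± 0.423, SCAMP5 with 18.9 ± 0.546, NPTX2 with 17.1 ± 0.746 and VAMP2 with 17 ± 0.9 RPKM. NPTX2 and VAMP2 were closer than their SDs. In SK-N-AS controls SV2A led with 40.2 ± 0.628 RPKM (SD, n = 4), then SYT4 with 29.9 ± 1.51, SYT1 with 26.8 ± 1.32 and SYT11 with 24.8 ± 0.314 RPKM. The siRNA controls had SYT11 first with 41.8 ± 0.632 RPKM (SD, n = 5), then SYT4 with 32.1 ± 1.25, SNAP25 with 28.7 ± 1.0 and CPLX1 with 28.1 ± 1.29 RPKM. SNAP25 and CPLX1 were again within their SDs. Controls of the same line differed between experiments, with BSN at 97.4 ± 9.17 CPM in siRNA and 27.4 ± 3.31 CPM in CRISPRi controls, and no test was made across these separately prepared tables.

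**Figure D4:**
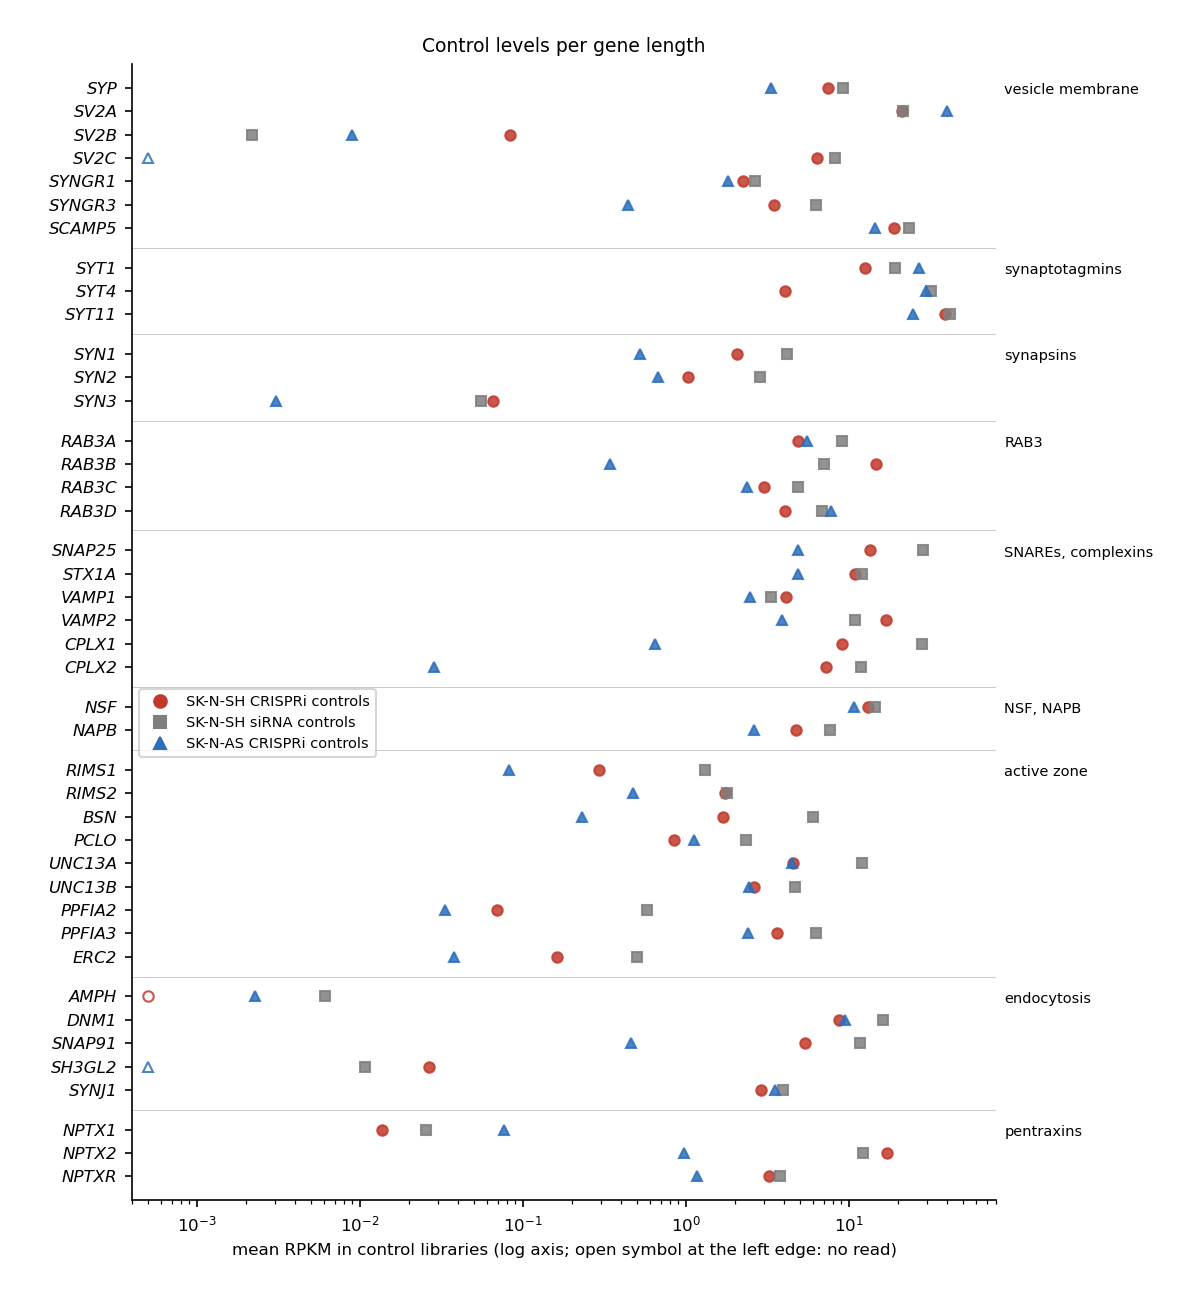
Mean level per length (RPKM, log axis) of each member in the control libraries of each experiment, by role, with open symbols at the left edge for genes with no read. SYT11 and SV2A are among the highest in both lines, and SV2C, CPLX2 and RAB3B are far lower in SK-N-AS than in SK-N-SH.

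Beyond the members, 68 other genes of the same pathway were taken from a list. That list was also chosen with earlier results of these data known, so its shares are descriptions too. Of 54 tested in SK-N-SH CRISPRi, 23 rose and 17 fell, with a median log2 fold change of 0.08 against −0.01 over all genes tested. That is 74.1% called, against 55.8% of all genes, 27.7% higher and 28% lower. By role, of 10 genes tested in the group of synaptotagmins, DOC2 proteins and rabphilin, 9 fell and 1 rose. Of 15 endocytosis genes 9 rose and 1 fell, and of 11 SNAREs and regulators 6 rose and 1 fell. Of 8 vesicle membrane genes 4 rose and 1 fell, and of 10 active zone genes 3 rose and 5 fell. In SK-N-AS 16 of 55 tested rose and 8 fell, which is 43.6% called against 30.6% of all genes, 15.2% higher and 15.5% lower. Of 11 active zone genes tested there, 2 rose and 2 fell. With siRNA 1 of 60 rose and 5 fell, 10% called, near the 9.53% of all genes.

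By adjusted p, RIMS4, a short RIM, led in SK-N-SH CRISPRi, with 16.3, 14.6 and 14.9 CPM in the knockdown libraries, against 59.9, 60.4 and 59.4 CPM in the controls. The RIMS4 log2 fold change was −1.97 ± 0.07 (SE, adjusted p = 1.15e-24). RIMBP2, which links RIM to calcium channels, had 53, 51.4 and 52.8 CPM in the knockdown libraries, against 144, 164 and 145 CPM in the controls. The RIMBP2 log2 fold change was −1.52 ± 0.05 (SE, adjusted p = 1.98e-24). RPH3A, the RAB3 effector rabphilin, had 19.3, 17.8 and 21.5 CPM in the knockdown libraries, against 77.6, 92.8 and 80.9 CPM in the controls. The RPH3A log2 fold change was −2.10 ± 0.07 (SE, adjusted p = 5.58e-20). All 3 fell without overlap. SYT13 had the largest fall, from 24 knockdown and 145 control reads (log2 fold change −2.44 ± 0.31 (SE), adjusted p = 1.19e-08). The largest rises were in SYT12, a synaptotagmin (log2 fold change 1.84 ± 0.23 (SE), adjusted p = 1.23e-08), DNM3, a dynamin (log2 fold change 1.30 ± 0.16 (SE), adjusted p = 3.85e-09), and SYNJ2, a synaptojanin (log2 fold change 0.69 ± 0.07 (SE), adjusted p = 5.63e-11). In SK-N-AS, RAB27B, a GTPase of secretory granules, rose (log2 fold change 0.81 ± 0.04 (SE), adjusted p = 8.52e-18), and RIMS3 (log2 fold change −0.63 ± 0.03 (SE), adjusted p = 5.68e-17) and SYT7, a slow calcium sensor (log2 fold change −1.67 ± 0.09 (SE), adjusted p = 6.08e-17), fell. With siRNA, RAB27B fell (log2 fold change −1.12 ± 0.07 (SE), adjusted p = 1.51e-10), as did SYNJ2 (log2 fold change −0.35 ± 0.05 (SE), adjusted p = 6.01e-05) and the dense-core vesicle priming factor CADPS (log2 fold change −0.33 ± 0.05 (SE), adjusted p = 1.54e-04).

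**Figure D5:**
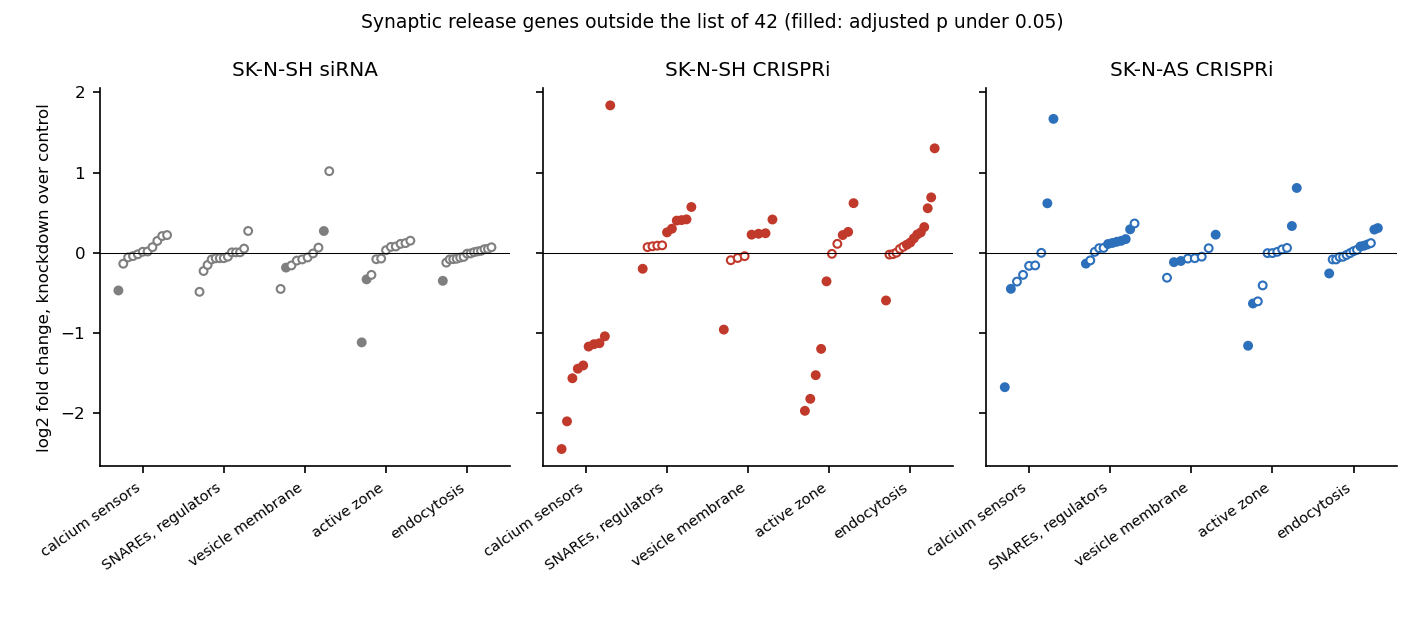
Log2 fold change, knockdown over control, of the pathway genes outside the members, by role and experiment, with a point for each gene tested, sorted by value within a role and filled where adjusted p was under 0.05. In SK-N-SH CRISPRi the genes labelled calcium sensors (synaptotagmins, DOC2 proteins and rabphilin) lie mostly below 0, at a median of −1.29. The endocytosis genes lie around 0.13.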

How the data were processed

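RNA-seq of 24 libraries in 6 groups was analysed from 3 tables of raw counts per gene deposited by the authors, with the deposited gene length (in bases, another unit) used for RPKM. Per the submitters' processing notes, featureCounts 1.5.1 and STAR 2.6.1d were used with GRCh38, after FastQC 0.11.8, CASAVA and bcl2fastq 2.20 and 2.20.0.422. Which annotation release and strand setting were used was not given in the sources used here. Per the labels' protocols, CRISPRi libraries came from the Illumina Stranded mRNA Prep kit and siRNA libraries from poly-T selection, with a protocol text covering stranded and non-stranded kits.

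Each table was fitted alone with edgeR 4.0.16 in R 4.3.3 (filterByExpr with a minimum count of 10 and total of 15, TMM, robust quasi-likelihood fit), and differences of response and control levels in joint models over shared Ensembl IDs. Adjusted p-values are Benjamini-Hochberg over all genes tested, with calls under 0.05. The SE of a log2 fold change was derived as its absolute value over the square root of the test's F statistic. DESeq2 1.42.0 was an alternative. DESeq2 called 2444, 7363 and 5900 genes in siRNA, SK-N-SH CRISPRi and SK-N-AS CRISPRi, against 2004, 8582 and 5904. RPKM is CPM divided by gene length in kilobases, with the length given in the siRNA table used for all tables. The code was tested on simulated data. Python 3.11.15, pandas 2.3.3 and matplotlib 3.10.9 were used for sequences and figures. Overlaps were read from GENCODE 29 exons.

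The members and lists were chosen with earlier results of these data known. All 42 members may be named; of the 68 pathway genes, those with the 3 smallest adjusted p among called genes in each experiment and, in SK-N-SH CRISPRi, the 3 largest called rises and falls. FAM167A, markers and genes that share exon bases or sequence with a member are also named. Some markers are not reported here.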

Additional observations from a re-analysis of the deposited data

Results flagged for a closer look

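In the following groups a single library lay apart from the others, by the gap to its nearest neighbour over the group's range. Chance alone does this in about 1 in 20 groups, and 152 groups of the members were examined. The SK-N-SH CRISPRi groups, with 3 libraries each, were too small and were not examined. UNC13A was 126 CPM in SK-N-SH siRNA knockdown library 5, against 144 to 151 CPM in the group's other libraries. NPTXR was 19.6 CPM in SK-N-SH siRNA knockdown library 1, against 21.2 to 21.6 CPM in the group's other libraries. SYT11 was 225 CPM in SK-N-SH siRNA control library 2, against 217 to 219 CPM in the group's other libraries. SYN3 was 0.49 CPM in SK-N-SH siRNA control library 5, against 0.213 to 0.289 CPM in the group's other libraries. SNAP25 was 102 CPM in SK-N-SH siRNA control library 3, against 93.9 to 95.7 CPM in the group's other libraries. SYN1 was 1.76 CPM in SK-N-AS CRISPRi knockdown library 2, against 2.07 to 2.12 CPM in the group's other libraries. PPFIA2 was 0.104 CPM in SK-N-AS CRISPRi knockdown library 4, against 0.231 to 0.255 CPM in the group's other libraries. PPFIA3 was 16.4 CPM in SK-N-AS CRISPRi control library 1, against 15.2 to 15.3 CPM in the group's other libraries. NPTXR was 6.24 CPM in SK-N-AS CRISPRi control library 4, against 6.86 to 6.93 CPM in the group's other libraries.

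Responses that differed between the SK-N-SH experiments by the test of the difference, as log2 CRISPRi response minus siRNA response at an adjusted p under 0.05 from edgeR, were SYP (−1.83), SV2C (−1.87), SCAMP5 (−0.96), SYT1 (0.89), SYT4 (−1.39), SYT11 (0.25), SYN1 (−1.77), SYN2 (−1.96), RAB3B (0.71), RAB3C (−1.92), SNAP25 (−1.12), STX1A (−0.38), VAMP1 (0.31), CPLX1 (−2.41), CPLX2 (−1.70), NAPB (−0.81), RIMS2 (0.44), BSN (−1.65), PCLO (−1.04), UNC13A (−1.69), PPFIA2 (−2.49), PPFIA3 (−1.37), ERC2 (−2.41), DNM1 (−0.37), SNAP91 (−2.00), SYNJ1 (−0.27), NPTX2 (−2.33) and NPTXR (−1.97). The same test between the lines, as SK-N-SH minus SK-N-AS CRISPRi response, gave SYP (−0.67), SV2A (0.55), SYNGR3 (0.61), SCAMP5 (−0.75), SYT1 (0.34), SYT4 (−1.87), SYT11 (0.25), SYN1 (−1.75), SYN2 (−2.00), RAB3B (0.82), RAB3C (−1.65), SNAP25 (−1.18), STX1A (−0.63), CPLX1 (−2.04), NAPB (−0.78), RIMS1 (1.62), RIMS2 (1.02), BSN (−1.11), PCLO (−0.63), UNC13A (−1.40), PPFIA3 (−1.06), ERC2 (−2.47), SNAP91 (−1.39), NPTX1 (−3.37), NPTX2 (−3.42) and NPTXR (−2.46).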

How the results depend on the processing

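Results were recomputed with DESeq2, RLE size factors, no filter on low counts, a filter at a mean of 1 CPM, a replicate block, and each library left out in turn. No member call changed direction under these. Of the members called, 27 of 31 kept the call under every alternative in SK-N-SH CRISPRi, 19 of 22 in SK-N-AS, 26 of 28 and 24 of 26 for the differences from siRNA and from SK-N-AS, and 33 of 36 for control levels. Those counts leave out members that lost no call but were not tested under some alternative, which were ERC2 in SK-N-SH CRISPRi, RIMS1 in SK-N-AS, ERC2 for the difference from SK-N-AS, and ERC2, SV2B and SYN3 for control levels. Of 7 siRNA calls 2 were kept under every alternative. The siRNA counts of members moved: 4 were higher and 3 lower as reported, against 2 higher without a filter, 2 higher and 1 lower with the replicate block, and between 1 and 5 higher and between 1 and 3 lower with 1 library left out. Without knockdown library 4 and control library 5 they were 4 and 3. The cause was not tested. With the block the siRNA calls of SYP (adjusted p = 0.091), RAB3B (0.0627), STX1A (0.0551) and SYNJ1 (0.102) and the VAMP1 difference from siRNA (0.0603) were no longer made, and no other member call was lost. Replicate numbers are shared by the labels, but deviations from group means correlated between −0.261 and 0.072 within a number, so the numbers do not pair the libraries, and not every library correlated best with its own number. No paired fit was made for control levels. SK-N-SH CRISPRi had the shallowest libraries, and members of few reads (SYN3, PPFIA2, NPTX1) were not tested there. Which strand setting the authors counted with was not given in the sources used here, which limits members that overlap other genes.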
